A study of Mus musculus with 13 samples.

Results

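Interferon-induced genes were examined in mouse NUT carcinoma (mNC), a squamous carcinoma driven by a gene fusion. The set holds 47 genes, listed by name as genes that interferons induce, and all of them were found among the 55332 genes with values in the deposited table. They were sorted by function into 8 role groups, namely transcription factors, RNA and DNA sensors, the IFIT family, the OAS family with PKR, the ISG15 system, PARP9 with DTX3L and PARP14, large and small GTPases, and other antiviral and regulatory products.

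Interferons are secreted proteins that cells release when they sense foreign or misplaced nucleic acid. Type I interferons act through the receptor chains IFNAR1 and IFNAR2, and the kinases JAK1 and TYK2 then set off assembly of the transcription factor complex ISGF3, which holds STAT2 and IRF9. ISGF3 binds the interferon-stimulated response element (ISRE), whereas type II interferon, interferon gamma, acts through gamma-activated sites (GAS). The induced genes encode sensors that raise sensitivity to further nucleic acid, effectors that block viral replication, and inhibitors that end the response. In tumors the same genes are read both as a state of the carcinoma cells and as a state of stromal and immune cells.

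All tumors came from the NUT carcinoma translocator (NCT) model, in which a Cre recombinase expressed in 1 lineage induces the translocation. Of the 13 tumors, 4 were oral tumors wild-type (WT) for Sox2 (genotype KRT14-Cre; NCT+/-) and 2 were oral tumors with Sox2 knocked out (KO), whose labels read KRT4Cre; NCT+/-; Sox2fl/fl although the study's methods name KRT14-Cre for both oral groups. The other 7 were pancreatic tumors, 4 of them WT (Pdx1-Cre; NCT+/-) and 3 of them KO (Pdx1-Cre; NCT+/-; Sox2fl; fl). The same Cre that makes the fusion deletes Sox2, the Cre drivers mark lineages rather than single cell types, and the ages of the mice were not given in the sources used here. Each library was bulk total RNA depleted of ribosomal RNA, so that fewer cells of a type and less RNA per cell cannot be told apart. The labels do not say whether each tumor came from its own mouse, and p-values measure the spread between these tumors. The comparisons ask whether loss of Sox2, a stemness transcription factor, or the tissue of origin went with a different level of the interferon-induced genes.

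Sequencing depth differed between the groups. The summed estimated counts per library ran from 29394258 to 40420228 for oral WT and from 40964533 to 46134830 for pancreatic WT, whereas the 2 oral KO libraries held 11735315 and 20432164 and the pancreatic KO libraries 89562790 to 120482829. Levels are given as CPM, counts relative to the size of the library after scaling by the trimmed mean of M-values. Sox2 had at least 410 counts in each WT tumor and at most 2 in each KO tumor. Of the markers of the carcinoma, Trp63, Krt5, Krt14 and Nutm1 were present in all 13 tumors, with Nutm1 at 41.0 to 64.4 CPM. In oral KO replicate 1 the share of counts from protein-coding genes was 59.5%, and elsewhere it was 84.5% to 91.7%.

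A single library stood apart. Oral WT replicate 4 had the highest level of the 4 oral WT tumors for 44 of the 47 members and the highest of all 13 tumors for 33. It was at least 2-fold above the next oral WT tumor for 28 members, and its median ratio to the mean of the other 3 was 3.11. Each oral comparison is therefore given with and without it. Skeletal muscle markers parted the oral tumors as well, since 8 of them (Ttn, Acta1, Ckm, Myh1, Myh4, Mylpf, Tnnt3 and Tnni2) summed to 17.2, 14.3, 27.5 and 490.9 CPM in the oral WT tumors and to 5111 and 2785 CPM in the oral KO tumors. The same sum was 7.07 to 12.0 CPM for the pancreatic tumors, with Myh4 at 0 in 3 tumors.

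Markers of leukocyte types followed several orders. The 4 general leukocyte markers (Ptprc, Cd52, Coro1a and Laptm5) summed to 96.4 to 140.8 CPM in oral WT and to 59.5 and 67.7 CPM in oral KO tumors. Of these 4, 1 was called lower in oral KO tumors and 0 higher. In the pancreas the sums were 90.1 to 165.2 CPM in WT and 83.8 to 157.3 CPM in KO, and 0 were called. The 8 macrophage and monocyte markers summed to 253.5 to 483.3 CPM in the oral WT tumors and to 94.8 and 136.9 CPM in the oral KO tumors, with no marker at 0 in any tumor, and 3 of the 8 (C1qa, C1qb and C1qc) fell with KO. In the pancreas they summed to 233.5 to 305.7 CPM in WT and 195.6 to 435.5 CPM in KO, and none passed the test. The 6 neutrophil markers, which include S100a8 and S100a9 that stressed keratinocytes also make, had the highest sums in oral KO replicate 1 (504.4 CPM) and oral WT replicate 4 (369.5 CPM). The sums were 24.3 to 57.2 CPM in the other oral WT tumors, 86.1 CPM in oral KO replicate 2, 47.4 to 191.6 CPM in pancreatic WT and 24.75 to 63.1 CPM in pancreatic KO tumors. Most of the 2 highest sums was S100a8 (288.2 and 192.1 CPM) and S100a9 (201.4 and 163.0 CPM). Csf3r (27.9 CPM) and Cxcr2 (25.9 CPM) were instead highest in pancreatic WT replicate 1 and Retnlg (14.3 CPM) in pancreatic WT replicate 3, and Ly6g was at most 0.198 CPM. The 11 T and NK cell markers, most of whose sum in the oral tumors is Trac and Cd4, summed to 39.3 to 90.6 CPM in oral WT, 25.4 and 27.1 CPM in oral KO, 5.80 to 11.9 CPM in pancreatic WT and 8.63 to 26.4 CPM in pancreatic KO tumors, with Ncr1 at 0 in 8 of the 13 tumors. They did not move together in the oral tumors, where Cd4 fell with KO (log2 fold change -2.26, SE 0.56, adjusted p = 0.0414) and Cd3d rose (log2 fold change 2.10, SE 0.47, adjusted p = 0.0338). The 7 dendritic and plasmacytoid dendritic cell markers summed to 4.21 to 6.46 CPM in oral WT and to 12.1 and 7.53 CPM in oral KO tumors, and the 6 B and plasma cell markers to 1.30 to 2.09 CPM and to 3.67 and 3.47 CPM, with none of either list past the test. In the pancreas these 2 sums were 3.94 to 7.16 CPM and 0.764 to 1.62 CPM over both genotypes. Outside the leukocytes, 2 of 6 fibroblast markers were called lower in oral KO than in oral WT tumors and 0 higher. Their sums were 8667 to 19010 CPM in oral WT and 9349 and 9393 CPM in oral KO tumors. The part of all these cells in the results below was not tested.

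**Figure D1:**
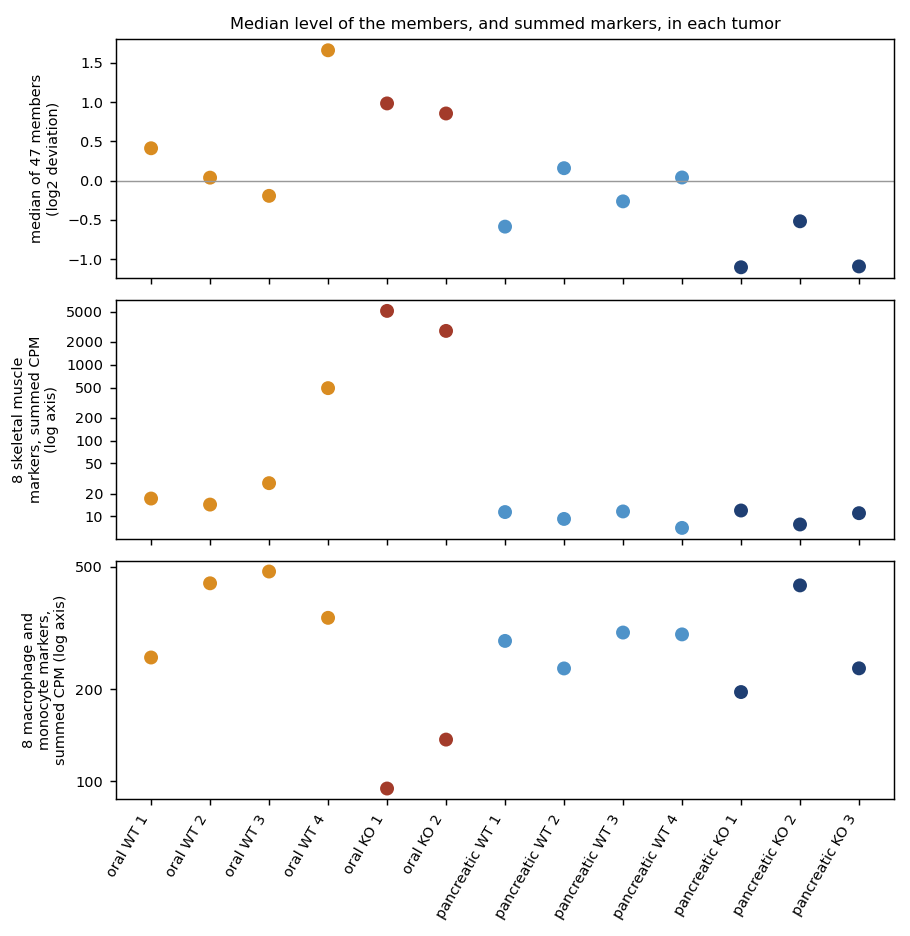
Median level of the 47 members in each tumor (top, as the median over members of log2(CPM + 0.5) minus the member's mean over the 13 tumors), and the summed CPM of 8 skeletal muscle markers (middle) and 8 macrophage and monocyte markers (bottom), both on log axes, with 1 point a tumor colored by group. The median is highest in oral WT replicate 4 (1.66) and lowest in pancreatic KO replicates 1 and 3 (-1.10 and -1.09), while the muscle sum is above 100 CPM in oral WT replicate 4 and both oral KO tumors.

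The promoters of the members show which of them carry the letters of the ISRE or GAS. RefSeq promoters (GRCm38.p6, from 250 bases before to 50 bases after the start) were at hand for 36 of the 47 members. The core letters of the ISRE, a repeat of 1 short block after a gap, searched on both strands, stood in 20 of these 36 members, against 3.99% of 27025 genes with a promoter in the table. Some genes have several promoters there, and counted by promoter it was 22 of 43 for the members and 3.44% for all. The letters of the GAS, a palindrome with a gap that reads the same on both strands, stood in 9 of the 36, against 9.55% of the genes. Both were found in 6 members and neither in 13. By role group, the ISRE letters were in 4 of 5 IFIT genes, 5 of 5 GTPase genes and 1 of 4 transcription factor genes with a promoter.

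The following stretches of 30 bases lie upstream of the start and are shown as examples, from several role groups, of promoters with ISRE letters and of 2 with GAS letters among genes described below. Each reads 5′ to 3′ along the gene, in lower case with the matched letters of the ISRE (of the GAS for Irf1 and Igtp) in capitals, gap included.
Isg15, chr4:156200871-156200900, minus strand, 72 bases before the start: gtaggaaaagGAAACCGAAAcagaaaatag
Ifit1, chr19:34640794-34640823, plus strand, 85 bases before the start: ccagtctcagTTTCAGTTTCtcactgctga
Ifit1bl1, chr19:34602053-34602082, minus strand, 104 bases before the start: actctgtaggTTTCATTTTCtgtaggttgg
Ifit3, chr19:34583397-34583426, plus strand, 122 bases before the start: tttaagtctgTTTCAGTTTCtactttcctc
Oas3, chr5:120777715-120777744, minus strand, 75 bases before the start: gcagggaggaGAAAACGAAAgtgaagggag
Stat2, chr10:128270266-128270295, plus strand, 222 bases before the start: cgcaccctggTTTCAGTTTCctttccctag
Irf1, chr11:53769914-53769943, plus strand, 90 bases before the start: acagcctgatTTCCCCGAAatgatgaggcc
Igtp, chr11:58199501-58199530, plus strand, 45 bases before the start: aactagccatTTCTAGGAActgaaactgaa

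In Isg15 and Oas3 the ISRE letters run on the opposite strand and so appear as their reverse complement. Irf1 and Igtp show the GAS letters, and Igtp has ISRE letters as well, 34 bases before its start. The stretch printed for Ifit3 is also found letter for letter in the promoter of its close relative Ifit3b, 154 bases before the start of that gene. Ifit1bl1 has a second promoter in the table with the same 10 capital letters 23 bases before its start. In Bst2 and Ifitm3 a GAS match and an ISRE match share letters. Neither set of letters was found in the window of Herc6, Irf7 or Oasl2, and Mx1, Mx2 and Usp18 have no entry in the table. A match describes letters in this window and was not tested for binding.

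Between genes, levels are compared per kilobase of exon. Ifitm3, which keeps enveloped viruses from entering the cytoplasm, was by far the highest at 321.1 CPM per kilobase (mean of the 4 group means). It was followed by Lgals3bp (21), Isg15 (17.0), Samd9l (15.2) and Bst2 (15.0), and the lowest were Cmpk2 (0.810), Epsti1 (1.36) and Iigp1 (1.43). Within a role group the highest were Irf7, Ddx58, Ifit1, Eif2ak2, Isg15, Dtx3l, Igtp and Ifitm3.

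**Figure D2:**
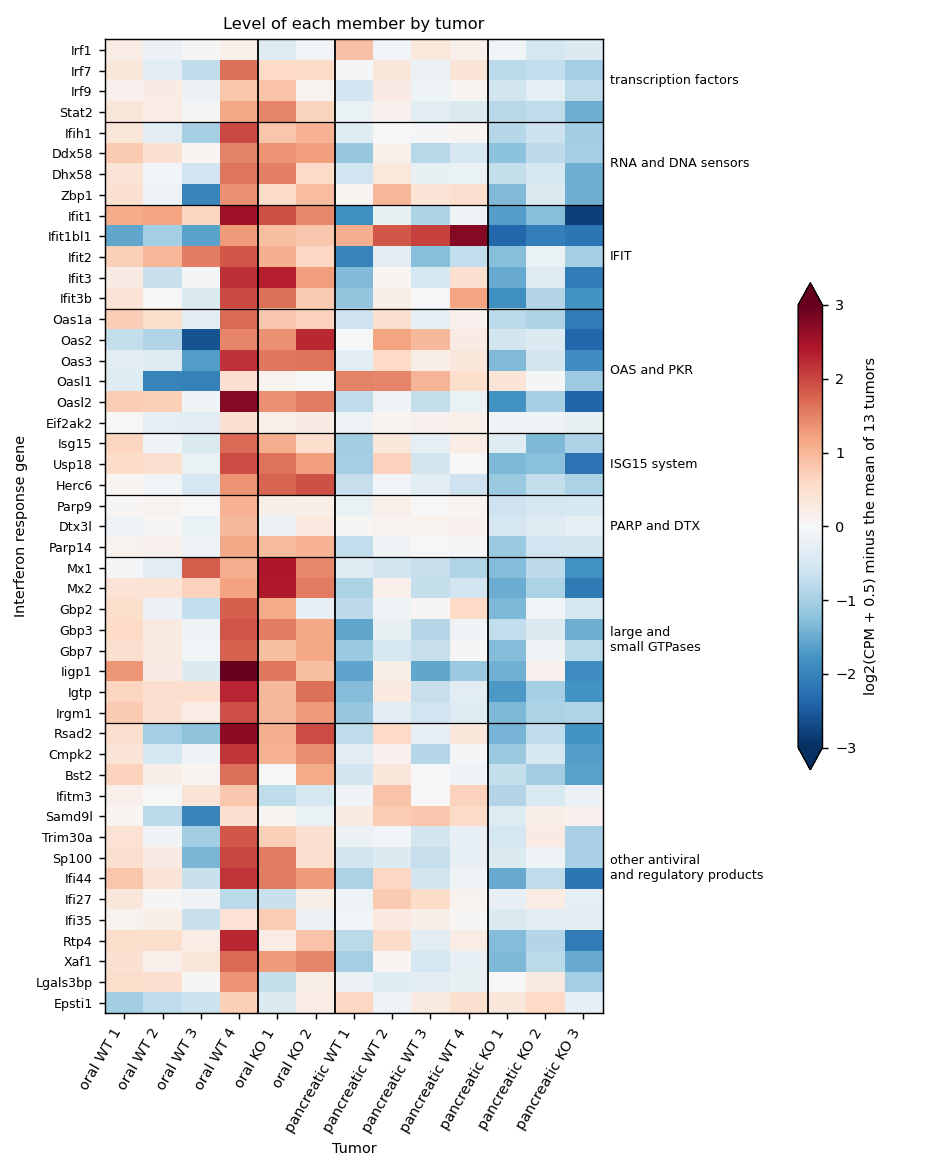
Level of each of the 47 members (rows, by role group) in each of the 13 tumors (columns, by group), as log2(CPM + 0.5) minus the member's mean over the 13 tumors, with red above and blue below that mean. Oral WT replicate 4 is above the mean for 46 of 47 members and the oral KO tumors for 40 and 42, whereas the 3 pancreatic KO tumors are above it for 2, 6 and 1.

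In pancreatic tumors most members had lower means in KO than in WT, and 1 of the 47 passed the test. Ifit1bl1, an IFIT1-like gene of the IFIT cluster, fell by 5.59 on the log2 scale with KO, and no member rose. A call required an adjusted p under 0.05 and a log2 fold change beyond 1 in edgeR, and over all 24653 genes tested 0.292% were called down and 0.337% were called up. The log2 fold change was above 0 for 4 of the 47 members, against 52.6% of all genes, with a median of -0.77 beside 0.02 over all genes. All 3 KO tumors lay below all 4 WT tumors for 21 members, against 8.75% of all genes, and above them for none, against 6.8%. At the same time 27 members had an unadjusted p under 0.05 with a lower level, against 8.77% of all genes. For a higher level it was no member, against 7.11% of all genes.

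DESeq2, the tool of the study's methods, gave more calls on the same counts. Without shrinkage it called 13 members down (2.91% of all genes) and 0 up (1.6%), and the 13 were Ifit1bl1, Ifit3b, Irf7, Zbp1, Oas1a, Oas2, Oas3, Oasl1, Oasl2, Usp18, Rsad2, Rtp4 and Bst2. With apeglm shrinkage it called 9 down (2.26% of all genes) and 0 up (1.35%). The KO libraries were deeper than the WT libraries. With all counts thinned to the smallest library, edgeR again called Ifit1bl1 alone.

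Ifit1bl1 was at 7.24, 12.7, 14.7 and 24.2 CPM in pancreatic WT and 0.210, 0.381 and 0.312 CPM in pancreatic KO tumors. The lowest WT tumor was far above the highest KO tumor (log2 fold change -5.59, SE 0.51, adjusted p = 0.00425). The KO values rest on 24.5 to 36.0 counts per tumor and the WT values on 275.7 to 982.0. The gene lies on chromosome 19 (GRCm38, 34592891 to 34601956, minus strand) between Ifit3 and Ifit3b, within a cluster whose other 5 genes had log2 fold changes of -2.35 to 0.24. Its relative Ifit1bl2 was looked up after these values were seen, and 18.7% of the 31-base stretches of Ifit1bl1 also occur in it. Ifit1bl2 was at 0.682, 0.623, 0.410 and 0.739 CPM in pancreatic WT and 0.385, 0.628 and 0.121 CPM in pancreatic KO tumors (log2 fold change -0.70, SE 0.53, adjusted p = 0.569).

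The IFIT family, to which the next genes belong, includes proteins that bind the ends of foreign RNA. Ifit3b was at 0.840, 2.92, 2.53 and 6.43 CPM in pancreatic WT and 0.350, 1.14 and 0.373 CPM in pancreatic KO tumors (log2 fold change -2.35, SE 0.75, adjusted p = 0.187). Ifit3 was at 1.34, 4.302, 2.67 and 5.92 CPM in pancreatic WT and 1.101, 3.03 and 0.572 CPM in pancreatic KO tumors (log2 fold change -1.18, SE 0.67, adjusted p = 0.447), and as 61.8% of its 31-base stretches occur in Ifit3b, reads could be split between them. The KO and WT tumors overlapped in both genes. Ifit1 was at 3.31, 11.2, 6.63 and 11.8 CPM in pancreatic WT and 3.82, 5.14 and 1.46 CPM in pancreatic KO tumors (log2 fold change -1.24, SE 0.55, adjusted p = 0.328), with 2 of the 3 KO tumors above the lowest WT tumor. Ifit2 was the one IFIT gene without a lower mean, at 1.55, 6.08, 2.87 and 4.36 CPM in pancreatic WT and 2.89, 6.63 and 3.57 CPM in pancreatic KO tumors (log2 fold change 0.24, SE 0.48, adjusted p = 0.853).

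Among the transcription factors, Irf7, which amplifies type I interferon production, was at 28.1, 37.1, 25.5 and 38.1 CPM in pancreatic WT and 16.5, 17.3 and 14 CPM in pancreatic KO tumors. The KO tumors lay below all WT tumors, and the difference missed the threshold (log2 fold change -1.01, SE 0.18, adjusted p = 0.0582). Stat2, a subunit of ISGF3, was at 31.6, 39.9, 28.97 and 26.6 CPM in pancreatic WT and 20.1, 21.3 and 12.9 CPM in pancreatic KO tumors (log2 fold change -0.80, SE 0.21, adjusted p = 0.129), again without overlap. Irf9, the DNA-binding subunit of ISGF3, was at 22.1, 39.5, 29.99 and 35.6 CPM in pancreatic WT and 22.7, 27.2 and 19.6 CPM in pancreatic KO tumors (log2 fold change -0.45, SE 0.21, adjusted p = 0.356), and Irf1, the interferon gamma-induced factor, at 45.2, 22.8, 30.5 and 27.04 CPM in pancreatic WT and 22.8, 16.9 and 18.1 CPM in pancreatic KO tumors (log2 fold change -0.69, SE 0.24, adjusted p = 0.215). For Irf9, 2 KO tumors were above the lowest WT tumor, and for Irf1 the highest KO tumor was level with the lowest WT tumor.

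Of the sensors, Ifih1 (MDA5) detects long double-stranded RNA and Zbp1 detects left-handed nucleic acid and can start necroptosis. Ifih1 was at 16.8, 21.99, 20.8 and 22.8 CPM in pancreatic WT and 11.8, 13.8 and 10.3 CPM in pancreatic KO tumors (log2 fold change -0.77, SE 0.17, adjusted p = 0.0843), and Zbp1 was at 6.85, 13.4, 8.71 and 9.29 CPM in pancreatic WT and 2.27, 4.68 and 2.04 CPM in pancreatic KO tumors (log2 fold change -1.67, SE 0.37, adjusted p = 0.0907). The groups did not overlap in either gene, and neither passed the test. Ddx58 (RIG-I), a sensor of RNA with a triphosphate end, was at 12.8, 32.3, 15.8 and 20.2 CPM in pancreatic WT and 11.98, 16.6 and 13.8 CPM in pancreatic KO tumors (log2 fold change -0.51, SE 0.31, adjusted p = 0.476). Dhx58 (LGP2), which modulates the other RNA sensors, was at 3.94, 7.95, 5.24 and 5.35 CPM in pancreatic WT and 3.602, 4.27 and 1.94 CPM in pancreatic KO tumors (log2 fold change -0.77, SE 0.35, adjusted p = 0.332). For these 2 sensors the KO tumors overlapped the WT tumors.

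OAS enzymes make the second messenger that activates RNase L. In this role group 5 of 6 members had every KO tumor below every WT tumor, and none was called. Oas2 was at 10.1, 23.7, 20.2 and 12.1 CPM in pancreatic WT and 6.78, 7.47 and 1.56 CPM in pancreatic KO tumors (log2 fold change -1.64, SE 0.56, adjusted p = 0.217). Oas3 was at 5.93, 11.7, 8.73 and 9.76 CPM in pancreatic WT and 2.71, 4.99 and 1.73 CPM in pancreatic KO tumors (log2 fold change -1.51, SE 0.40, adjusted p = 0.124), and Oasl2, an OAS-like protein, was at 14.5, 23.2, 15.2 and 21.9 CPM in pancreatic WT and 6.75, 12.3 and 4.37 CPM in pancreatic KO tumors (log2 fold change -1.25, SE 0.36, adjusted p = 0.155). Pancreatic KO replicate 3 was the lowest of the 7 tumors for each of these. The same held for Oasl1, at 22.4, 22.1, 16.2 and 11.4 CPM in pancreatic WT and 10.2, 7.502 and 3.34 CPM in pancreatic KO tumors (log2 fold change -1.35, SE 0.40, adjusted p = 0.163), and for Oas1a, at 6.56, 14.8, 8.57 and 11.4 CPM in pancreatic WT and 5.68, 5.21 and 2.03 CPM in pancreatic KO tumors (log2 fold change -1.25, SE 0.41, adjusted p = 0.197), of whose 31-base stretches 68.8% are shared with other genes, nearly all with Oas1g. Eif2ak2 (PKR), which halts translation when it binds double-stranded RNA, differed little, at 40.9, 47.8, 50.03 and 50.8 CPM in pancreatic WT and 41.5, 41.5 and 38.6 CPM in pancreatic KO tumors (log2 fold change -0.21, SE 0.11, adjusted p = 0.395).

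In the ISG15 system, Usp18, which strips ISG15 from proteins and dampens the type I receptor, was at 2.62, 9.62, 3.83 and 5.79 CPM in pancreatic WT and 1.98, 2.14 and 0.858 CPM in pancreatic KO tumors (log2 fold change -1.71, SE 0.52, adjusted p = 0.167). Herc6, the main ISG15 ligase of the mouse, was at 5.59, 8.74, 7.41 and 5.92 CPM in pancreatic WT and 4.07, 5.45 and 4.55 CPM in pancreatic KO tumors (log2 fold change -0.55, SE 0.24, adjusted p = 0.309), and Isg15 itself was at 4.803, 13.4, 8.57 and 12.3 CPM in pancreatic WT and 8.01, 3.76 and 5.11 CPM in pancreatic KO tumors (log2 fold change -0.79, SE 0.40, adjusted p = 0.386). The KO tumors lay below all WT tumors for Usp18 and Herc6 and not for Isg15. Parp9 and its partner ligase Dtx3l showed small differences with little spread. Parp9 was at 47.6, 61.4, 54.9 and 58.6 CPM in pancreatic WT and 35.2, 38.4 and 39.4 CPM in pancreatic KO tumors (log2 fold change -0.55, SE 0.12, adjusted p = 0.0884). Dtx3l was at 77.5, 80.5, 80.9 and 82.6 CPM in pancreatic WT and 52.6, 57.5 and 63.01 CPM in pancreatic KO tumors (log2 fold change -0.47, SE 0.10, adjusted p = 0.0868), and Parp14 at 29.4, 44.1, 48.4 and 48.2 CPM in pancreatic WT and 22.5, 32.2 and 33.2 CPM in pancreatic KO tumors (log2 fold change -0.52, SE 0.21, adjusted p = 0.285).

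GTPases of the MX, GBP and IRG families act on viral nucleocapsids and on vacuoles that hold intracellular microbes. Of the 8, Mx2 alone had all KO tumors below all WT tumors, by a narrow margin, at 1.97, 4.81, 2.39 and 2.71 CPM in pancreatic WT and 1.198, 1.96 and 0.607 CPM in pancreatic KO tumors (log2 fold change -1.24, SE 0.47, adjusted p = 0.256). Mx2 is annotated as a polymorphic pseudogene in GENCODE M21 and shares 7.96% of its 31-base stretches with Mx1. Mx1 was at 3.701, 3.25, 2.895 and 2.44 CPM in pancreatic WT and 1.72, 2.65 and 1.06 CPM in pancreatic KO tumors (log2 fold change -0.76, SE 0.35, adjusted p = 0.339), and Igtp, a small GTPase induced by interferon gamma, was at 2.76, 9.48, 4.49 and 5.96 CPM in pancreatic WT and 1.93, 3.53 and 1.83 CPM in pancreatic KO tumors (log2 fold change -1.21, SE 0.45, adjusted p = 0.245). Irgm1, which regulates the other small GTPases, was at 10.4, 18.3, 15.4 and 17.9 CPM in pancreatic WT and 8.84, 11.9 and 12.3 CPM in pancreatic KO tumors (log2 fold change -0.48, SE 0.23, adjusted p = 0.369). The other 4 showed little difference for their spread. Gbp3 was at 1.44, 4.36, 2.64 and 4.76 CPM in pancreatic WT and 2.92, 3.802 and 1.56 CPM in pancreatic KO tumors (log2 fold change -0.25, SE 0.47, adjusted p = 0.839), and Gbp7 at 6.06, 9.51, 8.21 and 13.9 CPM in pancreatic WT and 5.22, 12.7 and 7.58 CPM in pancreatic KO tumors (log2 fold change -0.14, SE 0.37, adjusted p = 0.892). Iigp1 was at 1.02, 4.67, 1.05 and 1.602 CPM in pancreatic WT and 1.19, 4.53 and 0.745 CPM in pancreatic KO tumors (log2 fold change 0.05, SE 0.77, adjusted p = 0.984), with pancreatic WT replicate 2 above the other 6, and Gbp2 had a log2 fold change of -0.59.

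Among the 14 other products, 6 had every KO tumor below every WT tumor, namely Rsad2, Rtp4, Bst2, Ifitm3, Samd9l and Ifi35. Rsad2 (viperin), which makes a chain-terminating nucleotide, was at 3.99, 10.8, 5.903 and 9.09 CPM in pancreatic WT and 2.37, 3.95 and 1.69 CPM in pancreatic KO tumors (log2 fold change -1.47, SE 0.43, adjusted p = 0.154), and Rtp4 was at 7.19, 19.2, 10.2 and 15.3 CPM in pancreatic WT and 4.99, 6.85 and 2.67 CPM in pancreatic KO tumors (log2 fold change -1.42, SE 0.42, adjusted p = 0.166). Bst2 (tetherin), which holds budding virus on the cell surface, was at 7.56, 14.4, 11.3 and 10.5 CPM in pancreatic WT and 6.69, 5.29 and 3.41 CPM in pancreatic KO tumors (log2 fold change -1.08, SE 0.30, adjusted p = 0.137). Ifitm3 was at 203, 395, 216 and 354 CPM in pancreatic WT and 118, 159 and 191 CPM in pancreatic KO tumors (log2 fold change -0.89, SE 0.29, adjusted p = 0.195). Ifi44 was at 4.72, 15, 6.41 and 8.72 CPM in pancreatic WT and 3.05, 5.52 and 1.77 CPM in pancreatic KO tumors (log2 fold change -1.33, SE 0.51, adjusted p = 0.253), with 1 KO tumor above the lowest WT tumor. Xaf1 was at 4.46, 10.1, 6.54 and 8.06 CPM in pancreatic WT and 3.46, 5.32 and 3.02 CPM in pancreatic KO tumors (log2 fold change -0.88, SE 0.33, adjusted p = 0.250), and Cmpk2 at 1.73, 2.58, 1.05 and 2.19 CPM in pancreatic WT and 0.787, 1.49 and 0.381 CPM in pancreatic KO tumors (log2 fold change -1.09, SE 0.51, adjusted p = 0.346), both with overlapping groups. Sp100 was level, at 6.06, 6.79, 5.45 and 7.69 CPM in pancreatic WT and 6.76, 8.51 and 4.403 CPM in pancreatic KO tumors (log2 fold change 0.02, SE 0.26, adjusted p = 0.981). The log2 fold changes of Samd9l and Ifi35 were -0.59 and -0.49, and those of Ifi27, Trim30a, Epsti1 and Lgals3bp were -0.46, -0.08, -0.06 and 0.13.

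Acinar markers (Cpa1, Cela1, Ctrb1, Pnlip, Cel, Amy2a5 and Cela2a) summed to 258.5 CPM in pancreatic KO replicate 3 and to 4.05 to 15.3 CPM in the other 6 pancreatic tumors. That tumor was the lowest of all 13 for 22 members. Without it, edgeR again called Ifit1bl1 alone, and the members' median log2 fold change stayed between -0.93 and -0.67 when each tumor of the comparison was left out in turn.

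**Figure D3:**
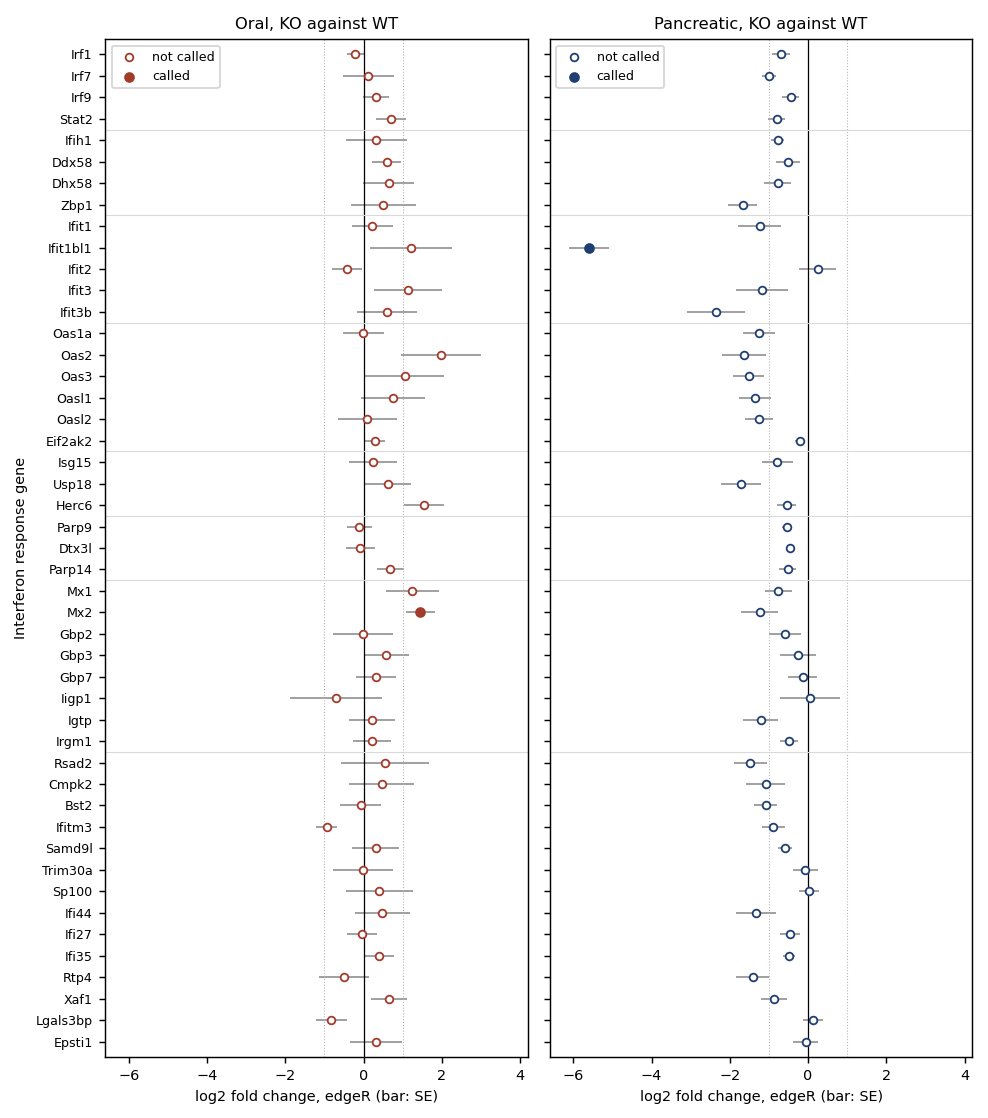
Log2 fold change of KO against WT for the 47 members (rows, by role group) in oral tumors (left) and pancreatic tumors (right), from edgeR, with bars of 1 SE, filled points for members called at an adjusted p under 0.05 and a log2 fold change beyond 1, and dotted lines at that fold. On the right 43 of 47 points lie below 0 with Ifit1bl1 at -5.59, and on the left 34 lie above 0 with Mx2 at 1.45.

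In oral tumors, Mx2 was the one member that passed the test for KO against WT, and it rose. Over all 22342 genes tested, 8.81% were called up and 2.89% were called down, so that 1 member of 47 up and 0 down were below the shares of all genes. That background includes non-coding genes. In a fit of protein-coding genes alone, which leaves out Mx2, 19 of 16352 genes were called up and 8 down. None of the 46 members in that fit was called. The members' median log2 fold change was 0.32, with 34 of 47 above 0 (49.9% of all genes), beside -0.0030 over all genes and -0.21 over protein-coding genes. Both KO tumors lay above all WT tumors for 2 members (Mx2 and Herc6, against 22.4% of all genes) and below them for 1 (Ifitm3, against 25.5%). At an unadjusted p under 0.05, 2 members were higher (19.7% of all genes) and 1 was lower (15.7%), and DESeq2 called Mx2 and Herc6 up and none down, both without shrinkage (11.7% of all genes up and 6.26% down) and with it (11.3% and 4.48%).

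Mx2 was at 5.87, 5.82, 7.29 and 10.6 CPM in oral WT and 24.6 and 13.5 CPM in oral KO tumors (log2 fold change 1.45, SE 0.37, adjusted p = 0.0434). Both KO tumors were above every WT tumor, and oral WT replicate 4 was the highest of the WT tumors. The call on Mx2 held in 7 of 13 other settings, and it was lost without any one of oral WT replicates 1, 2 and 3 and oral KO replicates 1 and 2. Its log2 fold change was 0.93 to 1.85 over the 13 settings. Calls over all genes fell in these fits too. From 1968 of 22342 genes called up, they went to 43 of 21631 without oral WT replicate 1, 19 of 22060 without replicate 2 and 912 of 22155 without replicate 3.

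Herc6 was at 9.71, 8.77, 6.46 and 24.6 CPM in oral WT and 32.3 and 36.1 CPM in oral KO tumors (log2 fold change 1.54, SE 0.51, adjusted p = 0.0811). Its KO tumors were also above all WT tumors, and its adjusted p missed the threshold. Ifitm3 went the other way, at 243, 221, 287 and 380.4 CPM in oral WT and 128 and 152 CPM in oral KO tumors (log2 fold change -0.94, SE 0.27, adjusted p = 0.0561). It was also lower in the pancreatic KO tumors, where its adjusted p was 0.195.

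Without oral WT replicate 4, 9 members rose and none fell. These were Mx2, Herc6, Ifit1bl1, Ifit3, Oas2, Oas3, Oasl2, Parp14 and Xaf1, with 8.72% of all genes called up and 3.43% called down in that fit. The members' median log2 fold change was then 0.94, beside 0.03 over all genes in that fit. Oas2 was then at a log2 fold change of 3.31 (SE 0.63, adjusted p = 0.0309), Ifit1bl1 at 2.83 (SE 0.45, adjusted p = 0.0212) and Oas3 at 2.50 (SE 0.45, adjusted p = 0.0254). With all 4 WT tumors in the fit their adjusted p-values were 0.216, 0.438 and 0.490. The library was kept in the main comparison because its label gives no ground to leave it out. It was singled out by the levels of these same members. Leaving it out takes away the highest WT value of most of them and narrows the WT spread. The calls and adjusted p-values without it are thus no separate test.

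In the role groups that follow, no further member was called, with adjusted p-values of 0.0561 to 0.997 and SEs of 0.22 to 1.17 over the 46 members without a call, Herc6 and Ifitm3 included. Log2 fold changes of KO against WT in oral tumors are given in parentheses. Irf7 was at 36.7, 23.2, 17.1 and 92.6 CPM in oral WT and 43.98 and 43.2 CPM in oral KO tumors (0.12), and Stat2 at 47.2, 42.2, 35.6 and 82.2 CPM in oral WT and 102 and 57.8 CPM in oral KO tumors (0.71). Oral WT replicate 4 was the highest tumor for Irf7 and oral KO replicate 1 for Stat2. Irf9 was at 36.5, 40.1, 29.6 and 60.1 CPM in oral WT and 60.96 and 36.2 CPM in oral KO tumors (0.31). Irf1 was at 28.5, 21.4, 25.1 and 27.2 CPM in oral WT and 18.6 and 23.1 CPM in oral KO tumors (-0.22).

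The sensors were at higher means in KO with wide overlap. Ddx58 was at 49.6, 39.7, 29.9 and 81.9 CPM in oral WT and 74.1 and 68.8 CPM in oral KO tumors (0.59), and Ifih1 at 28.1, 17.3, 10.7 and 87.6 CPM in oral WT and 39.4 and 45.9 CPM in oral KO tumors (0.33). In both, the KO tumors were above 3 WT tumors and below oral WT replicate 4. Dhx58 was at 8.43, 5.85, 3.96 and 20.1 CPM in oral WT and 18.7 and 9.48 CPM in oral KO tumors (0.64), and Zbp1 at 9.11, 5.79, 1.27 and 17.5 CPM in oral WT and 9.73 and 12.8 CPM in oral KO tumors (0.50), with oral WT replicate 3 the lowest of the 13 tumors for Zbp1.

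Ifit1bl1 was at 0.728, 1.29, 0.697 and 8.34 CPM in oral WT and 6.25 and 5.86 CPM in oral KO tumors (1.21). Of the WT tumors, 3 lay between 0.697 and 1.29 CPM, and oral WT replicate 4 was above both KO tumors. Ifit3 was at 4.94, 2.401, 3.96 and 20.6 CPM in oral WT and 22.7 and 10.4 CPM in oral KO tumors (1.14), and Ifit3b at 3.58, 2.52, 1.74 and 11.5 CPM in oral WT and 9.13 and 4.72 CPM in oral KO tumors (0.60). Ifit1 was at 29.1, 30.6, 20.6 and 78.2 CPM in oral WT and 50.9 and 36.3 CPM in oral KO tumors (0.22) and so stood well above its pancreatic level in every oral tumor. Ifit2 was at 12.98, 15.9, 23.4 and 29.1 CPM in oral WT and 16.6 and 12.1 CPM in oral KO tumors (-0.43), the one IFIT gene with a lower mean in KO.

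Among the OAS genes, Oas2 was at 5.98, 5.203, 1.24 and 28.9 CPM in oral WT and 26.9 and 50.4 CPM in oral KO tumors (1.98), which spans more than 20-fold among the WT tumors. Oas3 was at 5.91, 5.696, 2.03 and 35.8 CPM in oral WT and 23.6 and 24.6 CPM in oral KO tumors (1.05), and Oasl2 at 42.2, 41.6, 23.03 and 170.4 CPM in oral WT and 65.7 and 74.7 CPM in oral KO tumors (0.10). Each has its 3 low WT tumors below both KO tumors. Oas1a was at 17.7, 15.3, 8.08 and 34.7 CPM in oral WT and 18.7 and 17.02 CPM in oral KO tumors (-0.0038), Oasl1 at 5.85, 1.54, 1.52 and 11.1 CPM in oral WT and 8.24 and 7.69 CPM in oral KO tumors (0.75) and Eif2ak2 at 44.7, 37.3, 36.6 and 62.1 CPM in oral WT and 50.8 and 54.3 CPM in oral KO tumors (0.30). Oasl1 is the OAS member whose oral WT tumors all lay below the pancreatic WT tumors.

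Isg15 was at 16.5, 9.48, 7.602 and 34.8 CPM in oral WT and 22.8 and 15.3 CPM in oral KO tumors (0.24), and Usp18 at 8.78, 8.28, 5.004 and 23.8 CPM in oral WT and 18.96 and 14.4 CPM in oral KO tumors (0.63). Neither gene had KO tumors above oral WT replicate 4. Parp14, an ADP-ribosyltransferase, was at 53.3, 53.6, 43.9 and 108 CPM in oral WT and 95.2 and 102 CPM in oral KO tumors (0.69), with both KO tumors close to oral WT replicate 4. Parp9 was at 56.8, 58.8, 55.7 and 113 CPM in oral WT and 61.7 and 63.5 CPM in oral KO tumors (-0.10) and Dtx3l at 67.6, 77.1, 64.9 and 147 CPM in oral WT and 66.8 and 92.9 CPM in oral KO tumors (-0.08), in which replicate 4 of the WT tumors stood alone.

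Mx1 was at 4.77, 3.88, 18.6 and 11.1 CPM in oral WT and 28.99 and 14.4 CPM in oral KO tumors (1.25), with oral WT replicate 3 and not 4 the highest WT tumor. Igtp was at 12.1, 10.9, 10.99 and 39.1 CPM in oral WT and 15.5 and 24.8 CPM in oral KO tumors (0.22), and Irgm1 at 40.4, 32.1, 27.4 and 90.2 CPM in oral WT and 46.8 and 57.9 CPM in oral KO tumors (0.22). Iigp1 was at 10.99, 4.96, 2.91 and 54.5 CPM in oral WT and 13.2 and 8.04 CPM in oral KO tumors (-0.70), with oral WT replicate 4 at 4.96 times the next WT tumor. Gbp3 was at 8.099, 6.37, 4.75 and 20.6 CPM in oral WT and 15.99 and 12.2 CPM in oral KO tumors (0.58), Gbp7 at 19.2, 16.5, 12.9 and 47.3 CPM in oral WT and 25.7 and 30.9 CPM in oral KO tumors (0.32) and Gbp2 at 14.8, 8.84, 5.83 and 36.4 CPM in oral WT and 22.3 and 8.43 CPM in oral KO tumors (-0.01), all guanylate-binding proteins that gather on vacuoles.

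Of the other products, Rsad2 was at 10.2, 3.202, 2.79 and 47.7 CPM in oral WT and 15.7 and 28.6 CPM in oral KO tumors (0.55) and its neighbor in function, the nucleotide kinase Cmpk2, at 3.13, 1.45, 2.09 and 11.9 CPM in oral WT and 5.26 and 6.87 CPM in oral KO tumors (0.46). Xaf1, which promotes apoptosis, was at 13.4, 10.7, 12.2 and 32.5 CPM in oral WT and 24.03 and 27.4 CPM in oral KO tumors (0.66), and Ifi44 at 17.5, 12.7, 5.86 and 44.4 CPM in oral WT and 28.8 and 24 CPM in oral KO tumors (0.48). In all 4 the KO tumors were above 3 WT tumors and below oral WT replicate 4. Rtp4 was at 19.1, 19.03, 15.4 and 64.5 CPM in oral WT and 15.3 and 23.97 CPM in oral KO tumors (-0.51), Bst2 at 18.5, 12.8, 12.1 and 36.95 CPM in oral WT and 11.2 and 24.9 CPM in oral KO tumors (-0.08) and Sp100, a nuclear body protein, at 13.1, 11.1, 3.26 and 38.2 CPM in oral WT and 27.9 and 13 CPM in oral KO tumors (0.41). Lgals3bp, a secreted glycoprotein, was at 82.8, 80.8, 58.1 and 145 CPM in oral WT and 34.5 and 63.97 CPM in oral KO tumors (-0.82), and Ifi27 was the member for which oral WT replicate 4 was the lowest WT tumor, at 18.96, 15.2, 13.8 and 8.25 CPM in oral WT and 9.13 and 16.9 CPM in oral KO tumors (-0.04). The other 4, Samd9l, Trim30a, Ifi35 and Epsti1, had log2 fold changes of 0.31, -0.01, 0.39 and 0.31.

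**Figure D4:**
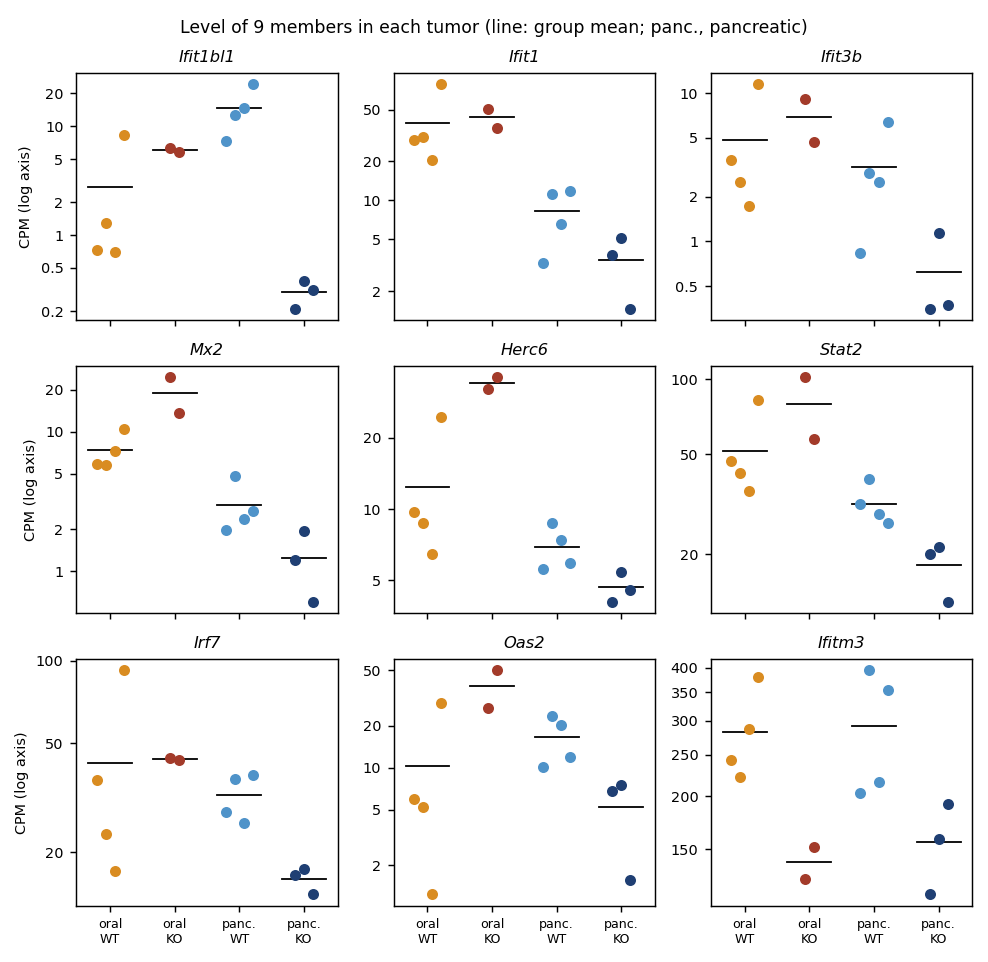
CPM of 9 members in each tumor (points, log axes) by group, with a line at the group mean. Ifit1bl1 is at 0.381 CPM or less in the 3 pancreatic KO tumors and at 7.24 CPM or more in the 4 pancreatic WT tumors, while Mx2 and Herc6 are highest in the 2 oral KO tumors and Ifitm3 is lower in KO tumors of both tissues.

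Whether the effect of KO differed between the tissues was tested as an interaction in 1 fit of all 13 tumors. The KO effect was higher in oral than in pancreatic tumors for 4 members, and lower for none. Over all 25836 genes tested, 7.41% were called in the first direction and 4.85% in the second. The 4 of 47 members called are thus near the share of all genes. The 4 members were Ifit1bl1 (difference of the log2 fold changes 6.73, SE 1.24, adjusted p = 0.0104), Mx2 (2.61, SE 0.64, adjusted p = 0.0218), Herc6 (2.02, SE 0.57, adjusted p = 0.0348) and Stat2 (1.43, SE 0.45, adjusted p = 0.0494). The difference was positive for 42 of the 47 (49.1% of all genes), with a median of 1.03 beside -0.03 over all genes and -0.28 over protein-coding genes. At an unadjusted p under 0.05, 12 members were higher (16.7% of all genes) and 0 lower (17.3%), and DESeq2 without shrinkage called 7 higher (10.6% of all genes) and 0 lower (7.75%). The 2 KO effects that enter it are those of the comparisons above, on the same tumors.

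Ifit1bl1 kept its interaction in 19 of 19 other settings and Mx2 in 16 of 18, whereas Herc6 kept it in 9 of 19 and Stat2 in 4 of 19. Without oral WT replicate 4 the interaction was called for 23 members in the same direction (9.39% of all genes) and for 0 in the other (5.93%), with a median of 1.57. Among these 23 were Oas2 (4.87, SE 0.96, adjusted p = 0.0124), Oas3 (3.93, SE 0.66, adjusted p = 0.00806), Usp18 (2.90, SE 0.69, adjusted p = 0.0193) and Irf7 (1.78, SE 0.37, adjusted p = 0.0133). With it in the fit their adjusted p-values were 0.0736, 0.146, 0.0803 and 0.292. The calls without it carry the limit given above, that it was picked by these same members. Without oral KO replicate 1 Ifit1bl1 alone was called, and without any one of oral WT replicates 1 and 2, pancreatic WT replicates 1, 2 and 3 and pancreatic KO replicates 1, 2 and 3, the calls were Ifit1bl1 and Mx2.

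Among WT tumors, oral tumors had higher levels than pancreatic tumors of 9 members, and of no member were the levels lower past the test. Over all 23164 genes tested, 9.3% were called higher in oral tumors and 7.24% lower. The 9 were Ifit1, Ifit2, Mx1, Mx2, Iigp1, Igtp, Irgm1, Oasl2 and Ddx58, so that 5 of the 8 GTPases were among them and none of the transcription factors. The median log2 fold change was 0.84 with 36 of 47 above 0 (50.3% of all genes), beside 0.0046 over all genes. At an unadjusted p under 0.05, 16 members were higher (19.1% of all genes) and 2 lower (17.7%), and DESeq2 without shrinkage called 12 higher (10.7% of all genes) and 2 lower (8.65%), the latter Ifit1bl1 and Oasl1.

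Ifit2 had the smallest adjusted p (log2 fold change 2.46, SE 0.43, adjusted p = 0.00505), and its oral WT tumors lay at 12.98, 15.9, 23.4 and 29.1 CPM against 1.55, 6.08, 2.87 and 4.36 CPM in the pancreas. Ifit1 was next (log2 fold change 2.27, SE 0.52, adjusted p = 0.0153), with 29.1, 30.6, 20.6 and 78.2 CPM against 3.31, 11.2, 6.63 and 11.8 CPM. Both kept the call in 15 of 15 other settings, and they alone kept it without pancreatic WT replicate 3. Irgm1 kept it in 14 of 15 (log2 fold change 1.62, SE 0.39, adjusted p = 0.0179), and Mx2 in 11 of 14 (log2 fold change 1.32, SE 0.34, adjusted p = 0.0233). The calls on Iigp1 (log2 fold change 3.15, SE 0.99, adjusted p = 0.0499) and Igtp (log2 fold change 1.69, SE 0.53, adjusted p = 0.0499) held in 5 of 15 settings each, those on Oasl2 in 7, and those on Mx1 and Ddx58 in 8. Without pancreatic WT replicate 1, 4 members were called higher, beside 1651 of 22803 genes. Without pancreatic WT replicate 4, the members called were Ifit1, Ifit2, Irgm1 and Gbp7.

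Ifit1bl1 differed from Ifit1 and Ifit2 in direction. Its mean was lower in oral than in pancreatic WT tumors (log2 fold change -2.40, SE 0.85, adjusted p = 0.0728), and it was not called with all 4 oral WT tumors. Without oral WT replicate 4, 5 members were called lower in oral tumors (8.94% of all genes), namely Ifit1bl1 (-4.02, SE 0.48, adjusted p = 0.00116), Oasl1 (-2.58, SE 0.54, adjusted p = 0.00988), Oas2, Epsti1 and Samd9l. Then 4 were called higher (9.19% of all genes), Ifit1, Ifit2, Irgm1 and Mx2, and the median of the members was 0.21. The same limit on leaving out this tumor applies here. Fibroblast markers were higher in the oral tumors too, all 6 of them past the test, with sums of 8667 to 19010 CPM in oral WT and 1118 to 2198 CPM in pancreatic WT tumors, and their part in the result was not tested.

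Among KO tumors the difference between the tissues was wide. Of the 47 members, 33 were higher in oral than in pancreatic KO tumors and 0 were lower, and over all 24787 genes tested 14.6% were called higher and 10.7% lower. The median log2 fold change was 1.97, with 42 of 47 above 0 (49.9% of all genes), beside -0.0036 over all genes and -0.28 over protein-coding genes. Both oral KO tumors lay above all 3 pancreatic KO tumors for 39 members, against 30.8% of all genes, and below them for none, against 30.7%. At an unadjusted p under 0.05, 35 members were higher (23.1% of all genes) and 0 lower (23.6%), and DESeq2 without shrinkage also called 33 higher (18.1%) and 0 lower (13.2%). The KO and WT comparisons between tissues share no tumor, whereas each shares its tumors with the comparisons of KO against WT.

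All 5 IFIT genes, all 4 sensors and all 3 genes of the ISG15 system were among the 33. So were 4 of 6 OAS genes with PKR, 6 of 8 GTPases, 3 of 4 transcription factors, 1 of 3 PARP and DTX genes and 7 of 14 other products. The largest differences were for Ifit1bl1 (log2 fold change 4.27, SE 0.42, adjusted p = 0.00532), Mx2 (log2 fold change 3.87, SE 0.56, adjusted p = 0.00912), Ifit1 (log2 fold change 3.60, SE 0.53, adjusted p = 0.00952) and Mx1 (log2 fold change 3.53, SE 0.50, adjusted p = 0.00878). Herc6 had the smallest adjusted p (log2 fold change 2.81, SE 0.24, adjusted p = 0.00436), with 32.3 and 36.1 CPM in the oral KO tumors against 4.07, 5.45 and 4.55 CPM in the pancreatic KO tumors.

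Further IFIT genes were Ifit3 (log2 fold change 3.35, SE 0.76, adjusted p = 0.0236), Ifit3b (log2 fold change 3.42, SE 0.67, adjusted p = 0.0160) and Ifit2 (log2 fold change 1.66, SE 0.43, adjusted p = 0.0322). Of the sensors, Ddx58 differed with the least spread (log2 fold change 2.28, SE 0.20, adjusted p = 0.00468), followed by Ifih1 (log2 fold change 1.77, SE 0.21, adjusted p = 0.00683), Dhx58 (log2 fold change 2.05, SE 0.47, adjusted p = 0.0230) and Zbp1 (log2 fold change 1.86, SE 0.45, adjusted p = 0.0266). The 3 called transcription factors were Stat2 (log2 fold change 2.09, SE 0.32, adjusted p = 0.0101), Irf7 (log2 fold change 1.40, SE 0.18, adjusted p = 0.00787) and Irf9 (log2 fold change 1.01, SE 0.28, adjusted p = 0.0372), while Irf1 was level (log2 fold change 0.06, SE 0.23, adjusted p = 0.858). Irf9 kept its call in 4 of 12 other settings, and Stat2 and Irf7 in 12 of 12.

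Usp18 (log2 fold change 3.28, SE 0.46, adjusted p = 0.00857) and Isg15 (log2 fold change 1.71, SE 0.39, adjusted p = 0.0241) complete the ISG15 system. The OAS genes called were Oasl2 (log2 fold change 3.12, SE 0.43, adjusted p = 0.00868), Oas3 (log2 fold change 2.89, SE 0.46, adjusted p = 0.0106), Oas2 (log2 fold change 2.82, SE 0.66, adjusted p = 0.0262) and Oas1a (log2 fold change 2.00, SE 0.46, adjusted p = 0.0238). Of the GTPases, Igtp (log2 fold change 3.00, SE 0.41, adjusted p = 0.00843), Gbp3 (log2 fold change 2.30, SE 0.43, adjusted p = 0.0147), Irgm1 (log2 fold change 2.19, SE 0.23, adjusted p = 0.00592) and Gbp7 (log2 fold change 1.68, SE 0.39, adjusted p = 0.0246) were called beside the MX genes, and Iigp1 had a large difference with a large error (log2 fold change 2.25, SE 0.79, adjusted p = 0.0743). Parp14 was called (log2 fold change 1.69, SE 0.22, adjusted p = 0.00754), and Parp9 passed the adjusted p below the fold required (log2 fold change 0.68, SE 0.15, adjusted p = 0.0226).

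The 7 other products called were Rsad2 (log2 fold change 3.00, SE 0.46, adjusted p = 0.00969), Ifi44 (log2 fold change 2.89, SE 0.48, adjusted p = 0.0116), Cmpk2 (log2 fold change 2.73, SE 0.59, adjusted p = 0.0208), Xaf1 (log2 fold change 2.65, SE 0.32, adjusted p = 0.00695), Rtp4 (log2 fold change 1.97, SE 0.44, adjusted p = 0.0221), Bst2 (log2 fold change 1.77, SE 0.44, adjusted p = 0.0290) and Sp100 (log2 fold change 1.59, SE 0.43, adjusted p = 0.0366). Those without a call were Trim30a (0.91), Ifi35 (0.71), Ifitm3 (-0.22), Samd9l (-0.13), Ifi27 (-0.15), Lgals3bp (-0.11) and Epsti1 (-0.42), each with its log2 fold change. Elsewhere Eif2ak2 (0.32), Oasl1 (0.13), Dtx3l (0.41) and Gbp2 (1.14) were not called either.

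The oral KO libraries were the shallowest and the pancreatic KO libraries the deepest. With counts thinned to the smallest library 33 members were called higher again, and 22 were without oral KO replicate 1 (12.4% of all genes) and 26 without replicate 2 (8.36%). No member was called lower without either of them, against 7.97% and 8.16% of all genes. Skeletal muscle markers were called higher in the oral KO tumors for 7 of 8, and macrophage markers lower for 4 of 8. Fibroblast markers were called higher for 3 of 6 and lower for 0. They summed to 9349 and 9393 CPM in oral KO and 2101 to 3622 CPM in pancreatic KO tumors. Of the carcinoma markers, 6 were tested, and 3 were called lower in oral KO tumors and 0 higher. The part of these cell types in the result was not tested.

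**Figure D5:**
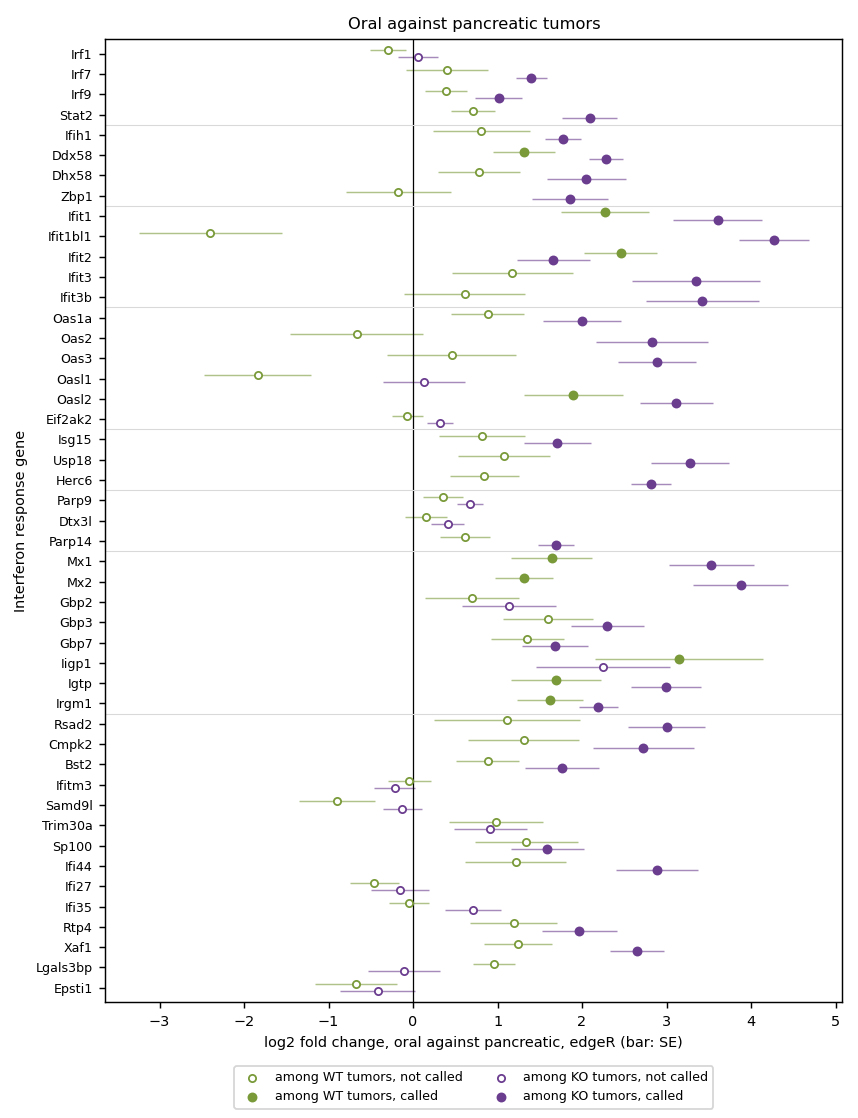
Log2 fold change of oral against pancreatic tumors for the 47 members (rows, by role group), among WT tumors (green) and among KO tumors (purple), from edgeR, with bars of 1 SE and filled points for called members. Among KO tumors 33 points are filled, all above 0, and among WT tumors 9, with Ifit1bl1 at -2.40 among WT and 4.27 among KO tumors.

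The genes that make, carry and limit the signal were followed from a list of 53. The 21 interferon genes (Ifng, Ifnb1, Ifnk, Ifne, Ifnz, Ifnab, the lambda genes Ifnl2 and Ifnl3 and 13 alpha genes) were at or near 0 in every tumor. The highest value was 0.245 CPM, of Ifna16 in pancreatic KO replicate 1, 9 of the 21 were at 0 in all 13 tumors, and none reached the minimum for a test. A count of 0 allows up to 3 counts, or 0.0249 to 0.256 CPM by library, counting error only. The other 32 were tested.

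Receptor genes were well expressed. Ifnar1 was at 80.3, 87.1, 89.1 and 59.8 CPM in oral WT, 46.1 and 59.2 CPM in oral KO, 69.7, 73.95, 69.1 and 76.7 CPM in pancreatic WT and 59.8, 79.5 and 70.04 CPM in pancreatic KO tumors. Ifngr1, the ligand-binding chain for interferon gamma, was lower in oral than in pancreatic tumors, both among WT (log2 fold change -1.16, SE 0.23, adjusted p = 0.00736) and among KO tumors (log2 fold change -1.66, SE 0.31, adjusted p = 0.0144). It was at 261, 160.2, 204 and 164 CPM in pancreatic WT and 86.6, 112 and 144 CPM in pancreatic KO tumors (log2 fold change -0.78, SE 0.23, adjusted p = 0.162), without overlap. No pathway gene was called for KO against WT in the pancreas, where 6 had an unadjusted p under 0.05 with a lower level (8.77% of all genes) and 0 with a higher one, and 4 of these 6 were receptors (Ifngr1, Ifngr2, Ifnlr1 and Il10rb).

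In oral tumors 1 of 32 pathway genes passed the test for KO against WT, Tlr7, an endosomal sensor of single-stranded RNA in myeloid and plasmacytoid dendritic cells, which fell, at 8.34, 10.6, 11.6 and 13.8 CPM in oral WT and 3.18 and 3.005 CPM in oral KO tumors (log2 fold change -1.76, SE 0.33, adjusted p = 0.0247). Over all genes 2.89% were called down there. Between WT tumors 4 pathway genes were higher in oral tumors, Socs1 (log2 fold change 1.26, SE 0.25, adjusted p = 0.00759), Irf8 (log2 fold change 1.02, SE 0.22, adjusted p = 0.0114), Tlr7 (log2 fold change 1.37, SE 0.26, adjusted p = 0.00653) and Tlr9 (log2 fold change 1.29, SE 0.36, adjusted p = 0.0305), and Socs3 (log2 fold change -1.09, SE 0.31, adjusted p = 0.0329) was lower with Ifngr1. These are 4 and 2 of 32 genes, beside the 9.3% and 7.24% of all genes called higher and lower. Socs1 and Socs3 encode inhibitors of the JAK kinases.

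Between KO tumors 3 pathway genes passed the test, all lower in oral tumors, Ifngr1, Irf2 (log2 fold change -1.30, SE 0.16, adjusted p = 0.00710), an IRF family member that can oppose IRF1, and Ptpn2 (log2 fold change -1.28, SE 0.24, adjusted p = 0.0142), a phosphatase that acts on JAK1. That is 3 of 32 beside 10.7% of all genes called lower. At an unadjusted p under 0.05, 3 of the 32 were higher and 8 lower, beside 23.1% and 23.6% of all genes. The interaction was positive for Ifnlr1 (difference of the log2 fold changes 1.36, SE 0.37, adjusted p = 0.0328) and negative for Ifnar2 (-1.09, SE 0.33, adjusted p = 0.0427), Irf8 (-1.24, SE 0.37, adjusted p = 0.0425) and Tlr7 (-2.27, SE 0.51, adjusted p = 0.0171). These are 1 and 3 of 32 genes, beside the 7.41% and 4.85% of all genes called positive and negative. Irf8 and Tlr7 are myeloid genes, and C1qa, C1qb and C1qc had negative interactions too (-2.24, SE 0.45, adjusted p = 0.0125 for C1qa). Of the 8 macrophage and monocyte markers, 3 were called, and the part of such cells was not tested.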

How the data were processed

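Total RNA depleted of ribosomal RNA was sequenced from 13 mNC tumors. Per the methods, reads were trimmed with Trim Galore 0.6.10, checked with FastQC 0.12.1, quantified against the GENCODE M23 (GRCm38) transcripts with kallisto 0.50.0 in its rf-stranded mode and summed per gene with tximport. The authors deposited these estimated counts per gene without normalization, 27.3% of the values were not whole, and 753 of 56085 genes carried no value. Estimated counts were rounded to whole numbers. A gene entered a comparison if 2 or more of its tumors had 10 counts or more. Counts were scaled by TMM and tested with the quasi-likelihood test of edgeR 4.0.16 (R 4.3.3, limma 3.58.1), with Benjamini-Hochberg adjustment over all genes entered. A gene was called at an adjusted p under 0.05 and a log2 fold change beyond 1 in either direction, and SEs were derived from the F statistic. Only the tumors compared entered a fit, except for the interaction. The fits were tested on simulated data with known fold changes.

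Gene symbols and exon lengths came from GENCODE M21, in which 55141 of the 55332 genes with values were found, and promoters from RefSeq (GRCm38.p6). All 47 members were named. Values in every tumor were given for members called in any comparison, for the 5 members of each direction with the smallest p among those whose KO and WT tumors did not overlap, and for the highest member per kilobase of each role group, and other values were added where they describe a role group. The members, the other pathway genes, the markers of other cell types and the tests were chosen with earlier results of these data known. Alternatives were DESeq2 1.42.0 with and without apeglm 1.24.0, DESeq2 size factors, no count filter, protein-coding genes alone, counts thinned to the smallest library, 1 fit of all tumors, a replicate block and each tumor left out in turn. Depth limits low genes most in the oral KO libraries.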

Additional observations from a re-analysis of the deposited data

Results flagged for a closer look

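In groups of 4 tumors, a tumor was singled out where its gap to the nearest of the others exceeded Dixon's 95% critical value. This happened in 15 of 94 groups of a member, where chance gives about 1 in 20, and 14 of the 15 were oral WT replicate 4, which was the highest each time. The genes share that library, so these are not separate observations. Its levels were 8.34 CPM of Ifit1bl1, 20.6 CPM of Ifit3, 35.8 CPM of Oas3, 170.4 CPM of Oasl2, 113.1 CPM of Parp9, 146.9 CPM of Dtx3l and 108.4 CPM of Parp14. They were 54.5 CPM of Iigp1, 39.1 CPM of Igtp, 47.7 CPM of Rsad2, 11.9 CPM of Cmpk2, 64.5 CPM of Rtp4, 32.5 CPM of Xaf1 and 5.17 CPM of Epsti1. The other was pancreatic WT replicate 2, with 4.67 CPM of Iigp1.

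The effect of KO differed between oral and pancreatic tumors, by edgeR's test of the interaction, for Ifit1bl1 (6.73 on the log2 scale, adjusted p = 0.0104), Mx2 (2.61, adjusted p = 0.0218), Herc6 (2.02, adjusted p = 0.0348) and Stat2 (1.43, adjusted p = 0.0494). Each was more positive in the oral tumors. These are 4 of 47 members, a share near the 7.41% of all genes called in that direction. In other settings Ifit1bl1 kept its call in 19 of 19, Mx2 in 16 of 18, Herc6 in 9 of 19 and Stat2 in 4 of 19. No cause was tested.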

How the results depend on the processing

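Of the median log2 fold changes of the members, 72 recomputed values stayed within 1 SD of the spread between replicates and 3 did not. These 3 came from leaving out oral WT replicate 4, with 0.94 for oral KO against WT, 0.21 for oral against pancreatic WT and 1.57 for the interaction. Of the calls on single members, 500 recomputed calls held, 132 fell short of the threshold and none changed sign. Members called up for oral KO against WT numbered 2 by DESeq2 without shrinkage (11.7% of all genes) or with it (11.3%) and in 1 fit of all 13 tumors (3590 of 25836 genes). They numbered 0 with the replicate block (43 of 22342 genes) or with protein-coding genes alone (19 of 16352 genes), a fit that leaves out Mx2 as a polymorphic pseudogene. Members called down there numbered 1 (Ifitm3) without the count filter (997 of 36788 genes) and in the fit of 13 (1492 of 25836 genes). For pancreatic KO against WT, 3 were called down with the replicate block (Ifit1bl1, Oasl1 and Zbp1), beside 401 of 24653 genes. By DESeq2 it was 9 with shrinkage (2.26% of all genes) and 13 without (2.91%). For oral against pancreatic WT, 5 were called higher without the count filter (2045 of 38028 genes). There 1 was called lower with the replicate block (1360 of 23164 genes) and 2 by DESeq2 (8.65% of all genes) or in the fit of 13 (1766 of 25836 genes). In the fit of protein-coding genes alone, which leaves out Mx2, the interaction was called for Ifit1bl1 and Herc6. DESeq2 called it for 7 members (10.6% of all genes). Leaving out 1 tumor at a time gave 0 to 9 members up and 0 down for oral KO against WT, 0 up and 1 down for pancreatic KO against WT, 2 to 11 higher and 0 to 5 lower for oral against pancreatic WT, 22 to 28 higher and 0 lower for KO, and 1 to 23 higher and 0 lower for the interaction. Where this left 1 KO tumor in a group, it was assumed to vary like the other tumors of the fit. The deviations of same-numbered tumors correlated at 0.32 for pancreatic KO and WT replicate 1 and at -0.08 to 0.03 for the other pairs. The labels do not say whether an equal number means a shared origin, and the block changed the calls as given above. Calls over all genes shifted as well. For pancreatic KO against WT, 14 of 24128 genes were called down without KO replicate 2 and 169 of 24576 without WT replicate 4. For oral KO against WT, 19 of 22060 genes were called up without WT replicate 2 and 1877 of 21524 without WT replicate 4. The cause of these shifts was not tested. At 11735315 counts, oral KO replicate 1 limits what can be said of low genes.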
